A study of Danio rerio with 24 samples.

Results

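Genes that mark or serve the tubules of the kidney were followed through single cells of zebrafish whole kidney marrow (WKM). The 10 genes, out of 23981 listed, were taken by name: *pax8* (ENSDARG00000015879), *cdh17* (ENSDARG00000005112), *cldn3c* (ENSDARG00000069503), *slc12a3* (ENSDARG00000013855), *slc12a10.3* (ENSDARG00000055253), *atp1a1a.4* (ENSDARG00000001870), *atp1a1a.5* (ENSDARG00000040252), *ndrg1a* (ENSDARG00000032849), *selenop* (ENSDARG00000093549, also known as *sepp1a*) and *mb* (ENSDARG00000031952). They were read in every barcode with at least 1500 transcripts, which gave 1008 cells in 24 libraries. The study asked how 2 mutant alleles of *ikzf1*, which encodes the blood cell transcription factor Ikaros, change blood formation. Cells came from fish 3 months of age, were sorted one per well by light scatter and were sequenced by mCEL-Seq2, a plate method that counts transcripts near their 3′ ends with unique molecular identifiers (UMIs). The genotypes were fr105, whose deletion leaves a truncated protein with only the first zinc finger, IT325, whose nonsense mutation removes the C-terminal zinc fingers, and wild-type. Fish of both mutant lines carry their allele throughout the body and not in blood cells alone. Each genotype had 8 libraries, 4 in a set named P1 and 4 in a set named P2.

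In fish the marrow fills the space between the tubules of the kidney, so that a suspension of WKM can hold tubule cells beside blood cells. Tubule cells recover salt and nutrients from the filtrate: the Na,K-ATPase at their base drives sodium out of the cell, and carriers on the other side let sodium, chloride and organic solutes in. Proximal segments take up sugars, amino acids and organic ions, whereas distal segments hold the sodium-chloride carriers of the slc12 family.

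After the minimum of 1500 transcripts, 304 cells remained for fr105, 359 for IT325 and 345 for wild-type, with 22 to 56 cells in a library. Transcripts summed over the cells of a library ran from 86165 to 519252. The median number of transcripts per cell lay between 3264 and 6120 in fr105 libraries, between 5364 and 8753 in IT325 libraries and between 3160 and 4502 in wild-type libraries. Levels are therefore given as CPM, the transcripts of a gene scaled to a total of 1000000 transcripts over the cells of a library. Barcodes do not tell cells of different libraries apart, since 12 libraries were made with 1 set of 96 barcodes and the other 12 with a second set. The methods describe 8 libraries of each genotype per sequencing lane, and an effect of the lane and one of the genotype cannot be told apart. The labels name no fish, and p-values measure the spread between libraries, which may be technical. Counting near the 3′ end of *ikzf1* lies outside the fr105 deletion, so that its level is no check of the labels.

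To find the cells that carried these genes, cells were clustered with the 10 genes left out, and clusters were named from other markers. Of 19 clusters, 2 were named kidney tubule-like, with 75 cells in all. Cluster 14 (36 cells) held 11 of 17 tubule markers above the set limit. Its leading genes included *SLC22A2*, *SLC22A8* and *SLC6A19*, carriers of organic ions and amino acids, and *FTCD*, an enzyme of histidine breakdown. Cluster 11 (39 cells) held 5 of the 17 markers, and its leading genes included *ca2*, a carbonic anhydrase, *fxyd2* and *atp1b1a*, subunits of the Na,K-ATPase, and *EMX1*, a transcription factor gene that in zebrafish is expressed in the distal pronephros. Markers of podocytes (3 matched), endothelium (5 matched) and skeletal muscle (4 matched) had no transcript in either cluster, and of 6 liver markers only *apoa2* was detected. All 15 neutrophil markers were detected in both, at a summed level of 3705 CPM in cluster 11 and 4436 CPM in cluster 14. Erythroid markers were detected for 10 of 12 genes in cluster 11 (1015 CPM) and 9 of 12 in cluster 14 (2187 CPM), and macrophage markers for 5 of 10 genes in cluster 11 (1405 CPM) and 7 of 10 in cluster 14 (237 CPM). The part of RNA from other cells in these 2 clusters was not tested.

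Tubule-like cells made up 13.5% ± 7.32 of the cells of an fr105 library, 8.13% ± 3.99 of an IT325 library and 0.5264% ± 0.975 of a wild-type library (SD, n = 8 each). Every mutant library held at least 1 such cell, whereas 2 of 8 wild-type libraries did. Cluster 11 consisted of 27 fr105 cells, 12 IT325 cells and no wild-type cell, and cluster 14 of 16 fr105, 18 IT325 and 2 wild-type cells. For wild-type, 0 of 345 cells allows a share of up to 0.870%, counting error only. These shares depend on the light-scatter gates and on how much tubule entered the suspension, and the part of either was not tested.

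The 10 genes split over the 2 clusters. *selenop*, which encodes the selenium carrier of blood plasma, was in all 36 cells of cluster 14 at 18028 CPM and in 84.6% of cells of cluster 11 at 1066 CPM. Cluster 14 alone held 77.1% of all *selenop* transcripts of the series. *cdh17*, a cadherin that in zebrafish marks the tubule epithelium, was spread over both clusters, in 89.7% of cells of cluster 11 (1913 CPM) and 86.1% of cells of cluster 14 (1051 CPM). *ndrg1a*, a stress-response gene expressed in the zebrafish pronephros, was also in both, in 76.9% of cells of cluster 11 (2252 CPM) and 83.3% of cells of cluster 14 (873 CPM). *atp1a1a.4*, an alpha subunit of the Na,K-ATPase, was in 76.9% of cells of cluster 11 (1715 CPM) and 69.4% of cells of cluster 14 (522 CPM).

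Of the other 6 genes, cluster 11 held between 81.8% (*cldn3c*) and 96.9% (*pax8*) of the transcripts. *mb*, the gene of the oxygen-binding protein myoglobin, was in 66.7% of its cells at 1479 CPM and in no cell of cluster 14. *atp1a1a.5*, a second alpha subunit of the pump, was in 33.3% of cells of cluster 11 (1339 CPM), and *pax8*, a transcription factor of the kidney lineage, in 30.8% (170 CPM), both with no transcript in cluster 14. *slc12a10.3*, a fish carrier of the sodium-chloride cotransporter family, was in 30.8% of cells of cluster 11 (2426 CPM) and in 2 cells of cluster 14. *slc12a3*, the thiazide-sensitive sodium-chloride cotransporter, was in 23.1% of cells of cluster 11 (445 CPM) and in 1 cell of cluster 14. *cldn3c*, a claudin and thus a protein of tight junctions, was in 59.0% of cells of cluster 11 (543 CPM) and in 3 cells of cluster 14 (23.7 CPM). Both clusters together held between 82.0% (*selenop*) and 96.9% (*pax8*) of the transcripts of 8 of the 10 genes, 71.0% of those of *ndrg1a* and 31.7% of those of *atp1a1a.4*. By cells the share was smaller, since 53 of the 67 cells with *slc12a10.3* and 25 of the 51 with *mb* lay outside both clusters. The map of level and detection by cluster shows this division in both mutants.

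**Figure D1:**
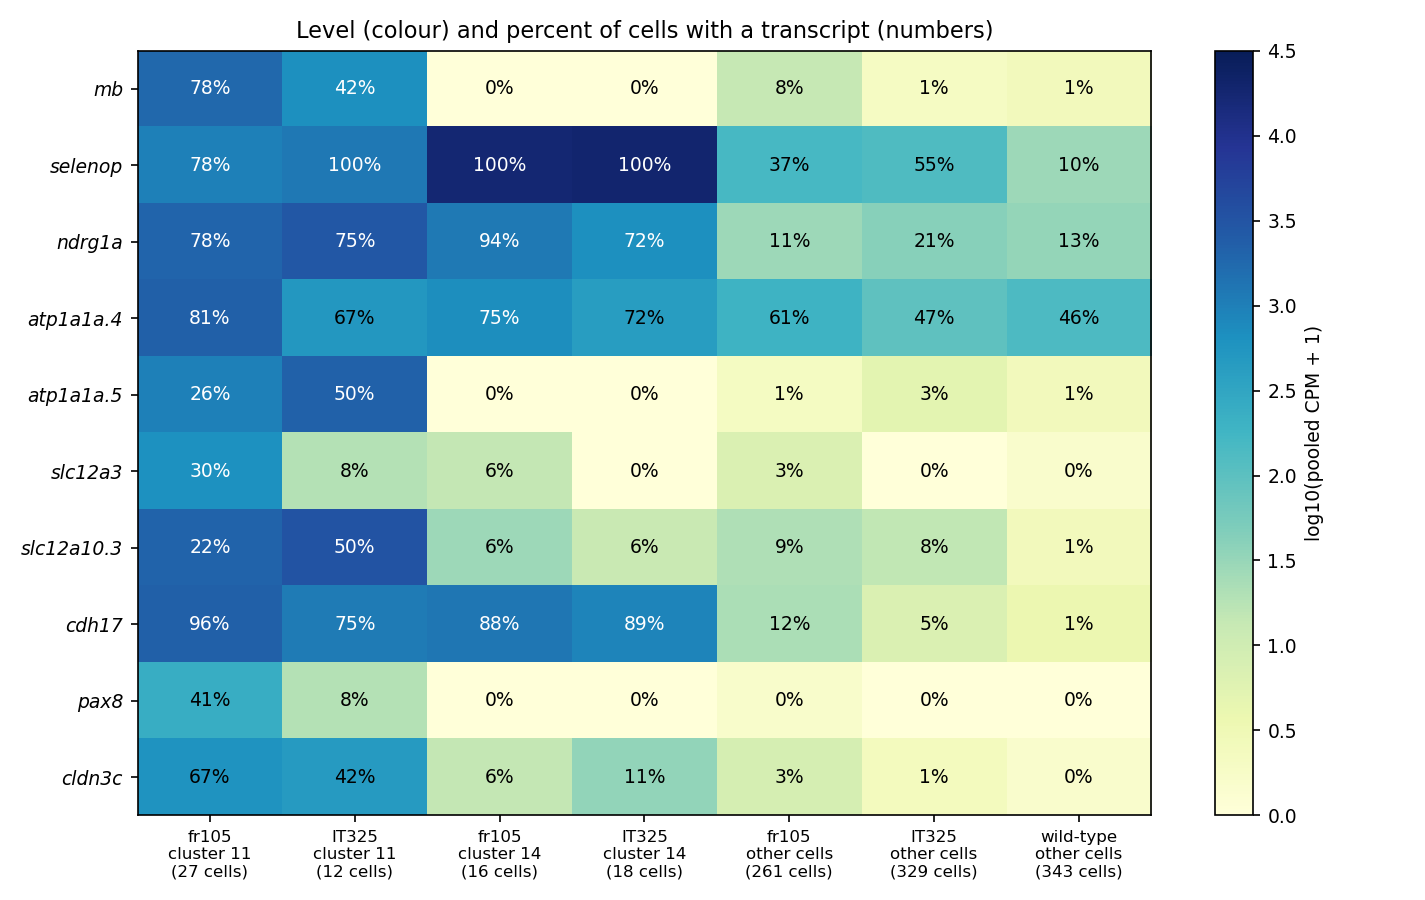
Level of the 10 genes in the kidney tubule-like clusters 11 and 14 and in all other cells, by genotype (columns), with colour giving log10(CPM + 1) of the pooled cells and numbers the rounded percent of cells with at least 1 transcript. *selenop* is in every cell of cluster 14, *mb*, *atp1a1a.5* and *pax8* are in none, and *selenop* and *atp1a1a.4* are the genes most often found outside both clusters.

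Within cluster 11 the transporters marked separate cells. *slc12a10.3* was in 12 cells, *slc12a3* in 9, and no cell held both. *atp1a1a.5* was in 13 cells, among them all 12 with *slc12a10.3*, and in none of the 9 with *slc12a3*. The 2 pump subunits were divided in the same way. In the 9 cells with *slc12a3*, *atp1a1a.4* was found in all 9, with a median of 11.01 transcripts a cell. In the 12 cells with *slc12a10.3* it was found in 4, with a median of 0, whereas *atp1a1a.5* had a median of 14.03 transcripts a cell. *ndrg1a* was in all 12 cells with *slc12a10.3* at a median of 23.1 transcripts and had a median of 2.0 transcripts in cells with *slc12a3*. *mb* was in 8 of the 9 cells with *slc12a3* (median 7.01 transcripts) and in 5 of the 12 with *slc12a10.3* (median 0). *pax8* went with *mb* in 11 of its 12 cells and with *cldn3c* in 10. The remaining 18 cells of the cluster had neither carrier, and 17 of them held *atp1a1a.4*. These sets of cells were formed after the values had been seen, and they are a description with no test. Reads that matched more than 1 locus had been discarded, which can lower the counts of related genes in tandem, such as these alpha subunits and the slc12a10 genes.

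In cluster 11, the cells with *slc12a10.3* came from both mutants, 6 from fr105 (replicates 1, 2, 5 and 8) and 6 from IT325 (replicates 1, 3 and 4). Cells with *slc12a3* were 8 from fr105 (replicates 1, 2 and 5) and 1 from IT325 (replicate 9). Over all 1008 cells, *slc12a3* was in 19 cells and *slc12a10.3* in 67, and 2 cells held both. *atp1a1a.5* and *slc12a3* shared no cell in the whole series, and *atp1a1a.5* and *slc12a10.3* shared 17.

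**Figure D2:**
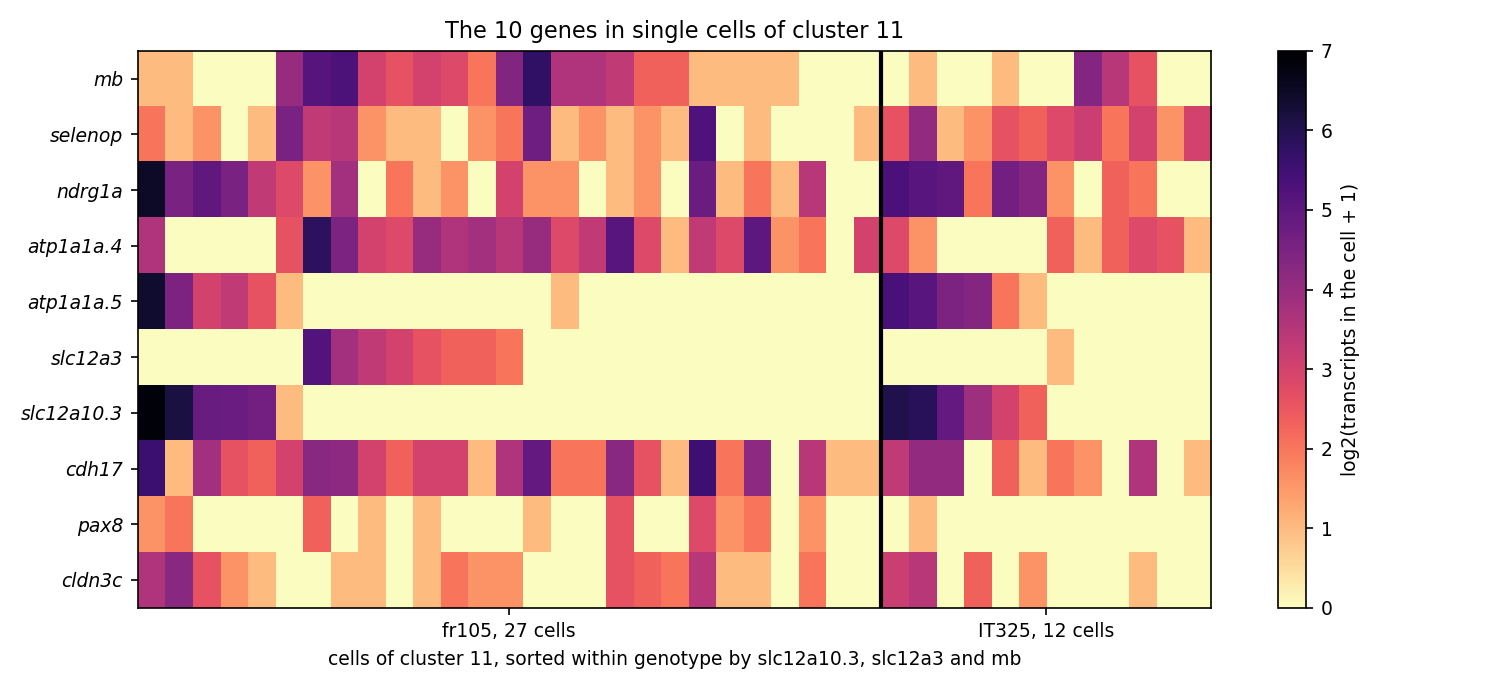
Transcripts of the 10 genes (rows) in each of the 39 cells of cluster 11 (columns), 27 from fr105 left of the black line and 12 from IT325 right of it, on a log2(transcripts + 1) colour scale. The 12 cells with *slc12a10.3* also hold *atp1a1a.5*, the 9 cells with *slc12a3* also hold *atp1a1a.4*, and no cell holds both carriers.

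Levels over all cells of a library were then compared between genotypes. In such sums fewer cells of a type and less RNA per cell cannot be told apart. Among the lineage and junction genes, *pax8* ran from 0 to 45.5 CPM in fr105 libraries with a median of 7.47 CPM (31 UMIs in 5 of 8 libraries, 16 of them in replicate 1), had 1 UMI in all IT325 libraries and had 0 UMIs in wild-type. *cdh17* ran from 8.16 to 468 CPM in fr105 (median 139), from 5.78 to 117 CPM in IT325 (median 53.3) and from 0 to 14.5 CPM in wild-type (median 0). In fr105, 3 libraries lay within the range of IT325 and 5 above it, and the lowest library of fr105 and the lowest 2 of IT325 lay within the range of wild-type. *cldn3c* ran from 0 to 122 CPM in fr105 (median 36.8), from 0 to 36.7 CPM in IT325 (median 3.51) and had 1 UMI in wild-type. The mutants overlapped up to 36.7 CPM, and 4 of the 8 fr105 libraries were above it.

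*slc12a3* was a gene of 3 fr105 libraries. Replicates 1, 2 and 5 of fr105 held 88.2, 54.4 and 146 CPM, from 31, 15 and 45 UMIs, and the other 5 fr105 libraries held none. IT325 and wild-type had 1 transcript each, in IT325 replicate 9 and wild-type replicate 2. *slc12a10.3* ran from 0 to 495 CPM in fr105 with a median of 73.5 CPM, in 5 of 8 libraries, and 1 cell held 76.4% of the transcripts of the highest library, replicate 5. In IT325 it ran from 0 to 269 CPM with a median of 3.85 CPM, and replicates 3 and 4 held 269 and 224 CPM, whereas wild-type had 3 UMIs in all. Both carriers thus varied by more between libraries of 1 mutant than between the means of the mutants, which were 125 ± 171 CPM in fr105 and 64.3 ± 113 CPM in IT325 for *slc12a10.3* (SD, n = 8 each).

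*atp1a1a.4* was present in every library, from 159 to 481 CPM in fr105 (median 342), from 71.3 to 187 CPM in IT325 (median 102) and from 99.2 to 204 CPM in wild-type (median 132). The IT325 range overlapped with that of wild-type, and only the lowest fr105 library lay within either. *atp1a1a.5* ran from 0 to 304 CPM in fr105 (median 11.02), from 0 to 185 CPM in IT325 (median 2.68) and from 0 to 11.3 CPM in wild-type (median 0). The mutants overlapped up to 185 CPM, and only fr105 replicate 5 lay above, where 1 cell held 88.3% of the transcripts of *atp1a1a.5*.

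*selenop* ran from 155 to 1713 CPM in fr105 (median 784), from 155 to 1696 CPM in IT325 (median 537) and from 7.08 to 185 CPM in wild-type (median 26.8). Both mutants shared 1 range, and only 2 wild-type libraries, at 170 and 185 CPM, reached it. In these, replicates 2 and 8, 1 cell held 84.4% and 66.8% of the *selenop* transcripts. In the highest library of each mutant, fr105 replicate 6 and IT325 replicate 2, 1 cell held 65.9% and 39.9%. *ndrg1a* ran from 16.3 to 464 CPM in fr105 (median 124), from 34.8 to 271 CPM in IT325 (median 71.5) and from 7.08 to 58.9 CPM in wild-type (median 32.4), with 3 fr105 and 2 IT325 libraries within the wild-type range. *mb* ran from 0 to 391 CPM in fr105 (median 70.2), from 0 to 76.7 CPM in IT325 (median 2.01) and from 0 to 8.38 CPM in wild-type (median 0). For none of the 10 genes did every library of one genotype lie above every library of another. Among all 23644 genes with a transcript, 0.550% had this for fr105 above wild-type, 0.685% for IT325 above wild-type and 0.791% for fr105 above IT325.

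**Figure D3:**
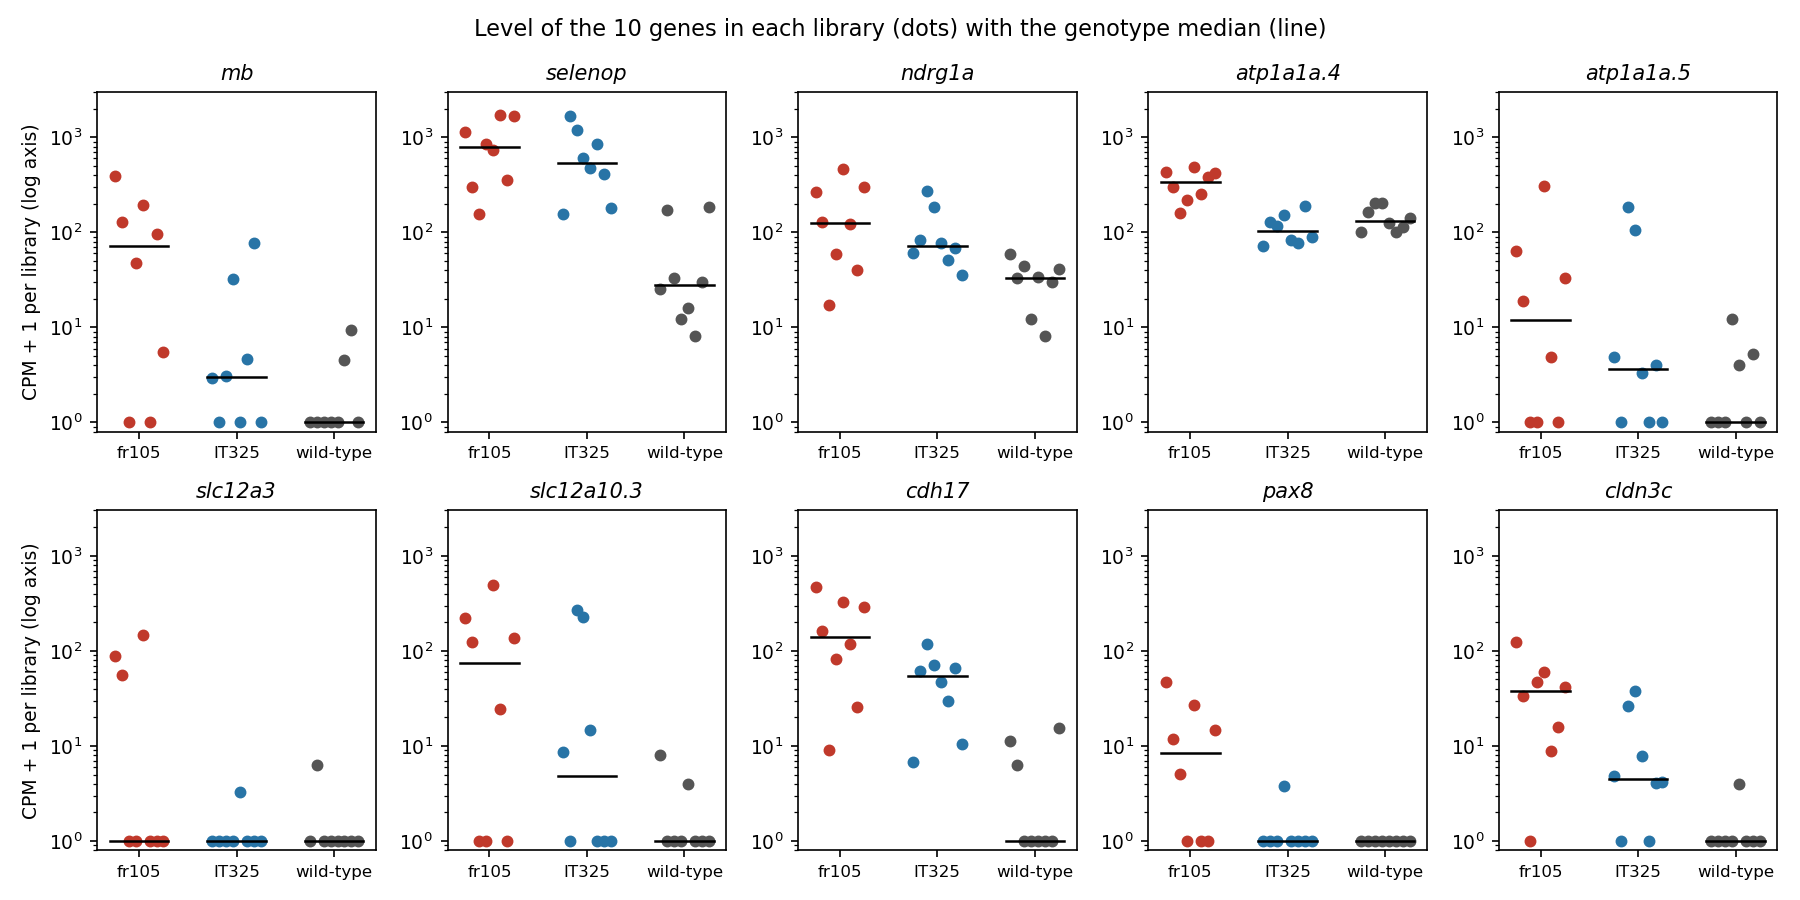
Level of each of the 10 genes in each library (dots, 8 per genotype) as CPM + 1 on a log axis, with the genotype median as a line, so that a library without a transcript lies at 1. *selenop*, *ndrg1a* and *atp1a1a.4* were detected in all 24 libraries, whereas the wild-type libraries lay at or below 14.5 CPM for the other 7 genes.

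The levels were tested with edgeR's quasi-likelihood test on transcripts summed per library, with Benjamini-Hochberg adjustment over 3296 genes, and a gene was called at an adjusted p below 0.05. Of the 10 genes, 4 passed the filter on low counts. In fr105 against wild-type 4 of these 4 were called higher and 0 lower, beside 11.6% of all genes tested called higher. *cdh17* was higher by 5.37 ± 0.82 on the log2 scale (SE, adjusted p = 1.94e-05), *selenop* by 3.79 ± 0.63 (5.46e-05), *ndrg1a* by 2.45 ± 0.55 (0.00166) and *atp1a1a.4* by 1.25 ± 0.24 (3.04e-04). The median of the 4 was 3.12, beside 0.02 for all genes tested. Within set P1 edgeR called *cdh17* (5.12) and *selenop* (3.33), and *ndrg1a* (1.68, adjusted p = 0.104) and *atp1a1a.4* (0.85, 0.181) were not called. Within set P2 edgeR called all 4, *cdh17* at 5.58, *selenop* at 4.15, *ndrg1a* at 3.06 and *atp1a1a.4* at 1.62. Beside these, 231 of all 3348 genes tested were called in P1 (145 higher) and 730 of 3613 in P2 (351 higher). A gene that passed the filter only through the genotype in which it is high had to differ, so that the counts of members called are a description. This holds for *cdh17*, with at most 14.5 CPM in wild-type and a transcript in 3 of 8 wild-type libraries. *selenop* and *ndrg1a*, with wild-type medians of 26.8 and 32.4 CPM, also passed the filter through the mutant libraries. Their calls against wild-type are thus a description too.

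In IT325 against wild-type 3 of the 4 were called higher and 0 lower, beside 11.5% of all genes tested called higher. *selenop* was higher by 3.69 ± 0.63 (edgeR adjusted p = 5.59e-05), *cdh17* by 3.62 ± 0.91 (0.00449) and *ndrg1a* by 1.82 ± 0.56 (0.0184). Here too *selenop*, *cdh17* and *ndrg1a* passed the filter through the mutant libraries, so that their calls and the count of 3 are a description. *atp1a1a.4* was not called, at -0.14 ± 0.24 (0.724). Without IT325 replicate 3, *ndrg1a* was no longer called, at 1.37 with an adjusted p of 0.0663. In the P1 libraries alone *selenop* was the 1 gene called of the 10, and *ndrg1a* and *cdh17* were at 0.65 and 2.89 with adjusted p of 0.535 and 0.133. In P2 alone *selenop* (4.11), *cdh17* (4.18) and *ndrg1a* (2.59) were called. Over all genes tested, 408 of 3348 were called in P1 (208 higher) and 352 of 3613 in P2 (200 higher).

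In fr105 against IT325, 2 of the 4 were called higher and 0 lower, beside 15.3% of all genes tested called higher. *atp1a1a.4* was higher by 1.40 ± 0.23 (edgeR adjusted p = 6.91e-05) and *cdh17* by 1.75 ± 0.53 (0.0135). *ndrg1a* (0.63 ± 0.46, adjusted p = 0.314) and *selenop* (0.10 ± 0.53, adjusted p = 0.910) were not called. The call of *cdh17* was lost without fr105 replicate 1 (1.36, adjusted p = 0.0517), and within the sets it was at 2.23 in P1 (0.0653) and 1.40 in P2 (0.151). *atp1a1a.4* kept its call without each of the 16 libraries of the comparison in turn and within the sets, at 1.24 in P1 (adjusted p = 0.0403) and 1.52 in P2 (6.15e-04).

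The 6 genes that the filter removed were compared by exact permutation tests on ranks over the libraries, two-sided, over all 12870 arrangements, whose smallest possible p is 1.55e-04. This made 18 tests, given unadjusted, of which 6 were below 0.05. The test was chosen after the data had been seen and was run on no other genes. The share of all genes below 0.05 is thus not known, and the count of 6 is a description. *cldn3c* was below it in all 3 comparisons, with exact permutation p = 0.0014 for fr105 against wild-type, 0.00699 for IT325 against wild-type and 0.0373 for fr105 against IT325. For *pax8* the exact p was 0.0256 for fr105 against wild-type, 0.0256 for fr105 against IT325 and 1 for IT325 against wild-type. For *mb* it was 0.0176 for fr105 against wild-type, 0.197 for IT325 against wild-type and 0.0993 for fr105 against IT325. *slc12a10.3* reached 0.0536 for fr105 against wild-type and 0.152 for IT325 against wild-type by the exact permutation test. For *slc12a3* the smallest exact p was 0.2, for fr105 against wild-type and also for fr105 against IT325. For *atp1a1a.5* it was 0.141, for fr105 against wild-type. The UMIs of *mb* were spread unevenly over libraries, since replicate 1 held 137 of the 255 UMIs of fr105 and replicate 11 held 25 of the 39 of IT325, whereas wild-type had 3 in all.

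Whether the genes differed within tubule-like cells was asked between the mutants, in libraries with at least 3 such cells, 5 of fr105 with 37 cells and 5 of IT325 with 25 cells. *atp1a1a.4* held 1737, 1661, 1670, 1521 and 1778 CPM in tubule-like cells of fr105 replicates 1, 2, 5, 7 and 8, against 485, 404, 323, 575 and 872 CPM in those of IT325 replicates 2, 3, 4, 9 and 11. Among these, every fr105 library lay above every IT325 library, and how many of all genes tested do so was not counted. With fewer tubule-like cells, fr105 replicates 3, 4 and 6 held 0, 1777 and 1741 CPM of *atp1a1a.4*. IT325 replicates 1, 10 and 12 held 161, 108 and 703 CPM. In the libraries with at least 3 such cells the gene was higher in fr105 by 1.59 ± 0.29 on the log2 scale (edgeR adjusted p = 0.00415). It was 1 of 3 genes called higher among 140 tested (2.14%), beside 7 called lower (5.00%) and thus 7.14% in either direction. Of the other members, *cdh17* (0.57 ± 0.34, adjusted p = 0.386), *mb* (1.71 ± 1.05, 0.393), *ndrg1a* (0.14 ± 0.58, 0.926), *slc12a10.3* (0.02 ± 1.142, 0.990) and *selenop* (-1.17 ± 0.61, 0.296) were not called, and 4 were removed by the filter. With at least 5 tubule-like cells a library, 4 fr105 and 2 IT325 libraries were left, *atp1a1a.4* was at 1.76 with an adjusted p of 0.101, and edgeR called 0 of 305 genes (31 at an unadjusted p below 0.05).

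The 2 clusters entered these sums in unequal parts. In cluster 11 *atp1a1a.4* was at 2234 CPM in fr105 and 524 CPM in IT325, and in cluster 14 at 683 CPM in fr105 and 420 CPM in IT325. Of the IT325 cells of cluster 11, 6 of 12 were those with *slc12a10.3*, against 6 of 27 fr105 cells, and *atp1a1a.4* was mostly not detected in such cells. The part of this mixture in the difference was not tested. *mb* was at 1840 CPM in cluster 11 of fr105 and 652 CPM in that of IT325, *cdh17* at 2249 and 1140 CPM, and *slc12a10.3*, in the other direction, at 2089 and 3200 CPM, in the same order of genotypes. *selenop* in cluster 14 was at 17349 CPM in fr105 and 19046 CPM in IT325, and the 2 wild-type cells of that cluster held 11009 CPM.

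Outside the tubule-like clusters *atp1a1a.4* averaged 196 ± 67.0 CPM in fr105, 95.6 ± 33.7 CPM in IT325 and 144 ± 42.9 CPM in wild-type (SD, n = 8 each). Refitted without tubule-like cells, edgeR still called it higher in fr105 than in IT325 (0.83 ± 0.21, adjusted p = 0.00349) but no longer in fr105 against wild-type (0.40, adjusted p = 0.179). *ndrg1a* was not called in any comparison without these cells, at -0.33 in fr105 against wild-type (0.602), 0.47 in IT325 against wild-type (0.378) and -0.79 in fr105 against IT325 (0.113), and *cdh17* was removed by the filter.

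**Figure D4:**
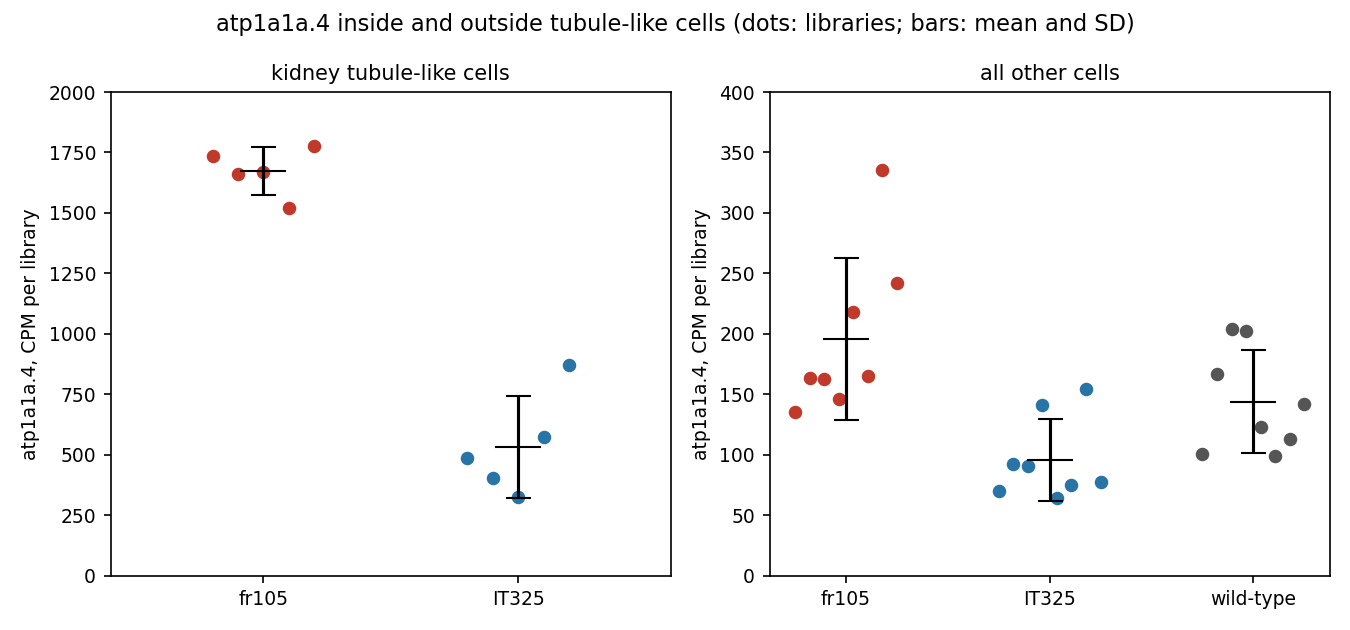
*atp1a1a.4* in CPM per library within kidney tubule-like cells (left, libraries with at least 3 such cells, 5 of fr105 and 5 of IT325) and in all other cells (right, 8 libraries per genotype), with the mean and SD as bars and different scales on the 2 axes. The 5 fr105 libraries sit between 1521 and 1778 CPM in tubule-like cells, all above the 5 IT325 libraries. How many of all genes tested do so was not counted. Ranges overlap in the other cells, at 136 to 336 CPM in fr105, 64.2 to 154 in IT325 and 99.2 to 204 in wild-type. Libraries with fewer tubule-like cells are not shown on the left, among them fr105 replicate 3 at 0 CPM.

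*selenop* differed in the other cells as well. It averaged 154 ± 112 CPM in fr105, 139 ± 96.7 CPM in IT325 and 26.0 ± 17.1 CPM in wild-type outside tubule-like clusters (SD, n = 8 each). Without the tubule-like cells it was higher by 2.43 in fr105 (edgeR adjusted p = 8.89e-04) and by 2.48 in IT325 (5.09e-04) than in wild-type. In this refit too it passed the filter through the mutant libraries, so that both calls are a description. It was found in 37.2% of these cells in fr105, 54.7% in IT325 and 10.5% in wild-type. Neutrophil-like cells, which have no known tubule function, lay in different clusters by genotype: clusters 2 and 4 held 85 and 83 of the 182 cells of fr105, clusters 5 and 8 held 73 and 50 of the 129 of IT325, and cluster 1 held 159 of the 187 of wild-type. In these cells *selenop* was found in 34.6% of cells in fr105, 55.0% in IT325 and 9.09% in wild-type, at median depths of 5794, 7917 and 3678 transcripts a cell in this order of genotypes. A neutrophil-like cell that held *selenop* had a mean of 2.34 transcripts in fr105, 1.83 in IT325 and 1.12 in wild-type, whereas a cell of cluster 14 had a mean of 84.4. After thinning every cell to 1500 UMIs, *selenop* was in 23.6% of all cells of fr105, 26.6% of IT325 and 4.64% of wild-type, against 44.1%, 58.5% and 11.01% before thinning, so that fr105 and IT325 lay closer together. Unused barcodes of these libraries held 21 *selenop* transcripts in fr105, 27 in IT325 and 10 in wild-type, and the part of stray RNA in these shares was not tested.

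Other members were found outside the clusters too. In the neutrophil-like cells of these different clusters and depths, *cdh17* was in 14.3% of cells of fr105, 3.10% of IT325 and 1.07% of wild-type. *slc12a10.3* was in 8.24%, 7.75% and 0.535% of them in the same order. *mb* was in 13 cells of fr105, 1 of IT325 and 1 of wild-type. *ndrg1a* was found most often in IT325, in 10.4% of cells of fr105, 35.7% of IT325 and 12.3% of wild-type, and *atp1a1a.5* was in 1 cell of fr105, 5 of IT325 and 3 of wild-type. Cells with any of these 5 genes held few transcripts, with means of 1.00 to 1.40. *atp1a1a.4* is a gene of many cell types by contrast, and was in 66.5% of neutrophil-like cells of fr105, 63.6% of IT325 and 51.3% of wild-type. All these shares pool the cells of a genotype over its libraries. Outside tubule-like clusters, *slc12a10.3* was in 9, 15 and 2 cells of IT325 replicates 3, 4 and 9 and in no other IT325 library. In fr105 replicates 1, 2 and 5 *slc12a10.3* was in 6, 8 and 6 such cells, and in 0 to 2 in the rest. In the same 3 libraries *cdh17* was in 12, 6 and 7 such cells and *mb* in 10, 3 and 4. Outside these 3, *cdh17* was in 5 such cells of fr105 replicate 8 and *mb* in 3 of replicate 7. The rest of the fr105 libraries held 0 to 1 such cells with *cdh17* and 0 with *mb*.

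Cells with several of the 10 genes were counted next. At least 3 of them were found in 25.7% ± 19.6 of cells of an fr105 library, from 0% to 53.3%, in 20.2% ± 10.8 of an IT325 library, from 4.76% to 40.4%, and in 1.31% ± 2.21 of a wild-type library, from 0% to 6.25% (SD, n = 8 each). The range of IT325 lay within that of fr105, and 1 fr105 library lay at 0. Of the 164 such cells, 68 were tubule-like. Leaving *selenop* out of the count gave 18.1% in fr105, 7.94% in IT325 and 0.261% in wild-type. All 13 cells with at least 7 of the genes were tubule-like, 11 of fr105 and 2 of IT325. Thinned to 1500 UMIs the shares were 14.5% in fr105, 7.14% in IT325 and 0.260% in wild-type.

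**Figure D5:**
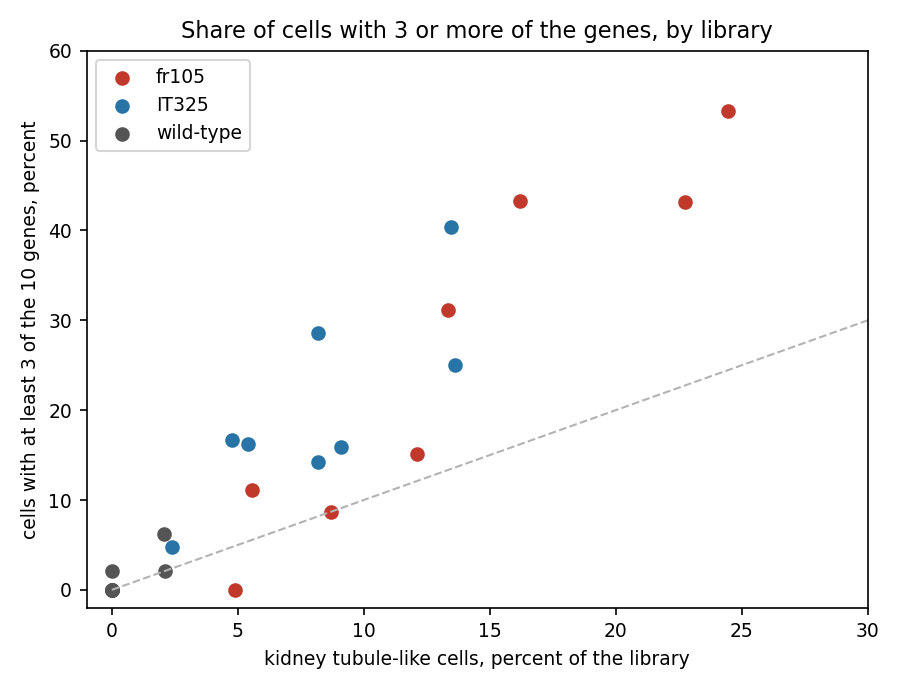
Percent of cells of a library with at least 3 of the 10 genes (vertical axis) against the percent of tubule-like cells (horizontal axis), 1 dot per library, with a dashed line where both are equal. Wild-type libraries lie at 0% to 6.25% and near the left edge, and most mutant libraries lie above the line.

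The 10 genes with the cells most like the 164 cells with at least 3 members were taken from 14204 other genes by the Jaccard index, the share of cells with both among cells with either. *fxyd2*, a small regulatory subunit of the Na,K-ATPase, led with an index of 0.339, and 62 of its 81 cells were among the 164. Among the others were *cox5b2* (0.272), *mdh1aa* (0.251), *atp1b1a* (0.235), *BSG* (0.232), *zgc:110339* (0.230), *SLC4A2* (0.228) and *BIN2* (0.224). *SLC4A2* encodes an anion exchanger.

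Of other subunits of the Na,K-ATPase, 13 were matched and 7 were tested. In fr105 against wild-type, 2 were called higher and 0 lower: *fxyd2* (4.87 ± 0.77) and *atp1b1a*, a beta subunit (1.59 ± 0.30), with a list median of 0.20. In IT325 against wild-type, 3 were called higher and 1 lower: *fxyd2* (3.43 ± 0.84), *atp1b1a* (0.92 ± 0.30) and *fxyd5* (0.71 ± 0.25) were higher and *atp1b2b* was at -0.59 ± 0.21, with a list median of 0.38. In fr105 against IT325, 3 were called higher and 2 lower by edgeR, with a list median of 0.66. Among these *fxyd2* (1.44 ± 0.50) and *atp1b2b* (0.89 ± 0.20) were higher and *fxyd5* (-1.03 ± 0.26) was lower. Over all genes tested, 23.9%, 21.8% and 28.7% were called in either direction, and the medians were 0.02, 0.00 and -0.03, in the same order of comparisons.

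No other kidney tubule gene (25 matched of 48 listed), slc12 carrier (9) or claudin (25) passed the filter on low counts, so that none was tested. Mean CPM was above wild-type for 22 of the 25 kidney tubule genes in fr105 (88.0%) and for 20 in IT325 (80.0%), and above IT325 for 13 in fr105 (52.0%), beside 48.2%, 44.3% and 51.7% of all genes with a transcript. Their CPM summed to 483 in fr105, 270 in IT325 and 89.9 in wild-type. The list was made with earlier results of these data known, and some of its genes also named the tubule-like clusters. These counts of genes are thus a description, and some rest on 1 transcript, as for *lhx1a* in each mutant. For claudins the numbers of genes were 12, 15 and 9 of 25, and for slc12 carriers 7, 4 and 7 of 9, in the same order of comparisons.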

How the data were processed

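The 24 libraries hold single cells of WKM from 8 fr105, 8 IT325 and 8 wild-type libraries, grouped by the labels. The authors aligned reads to Ensembl release 74 gene models with extended 3′ ends and discarded reads with several loci. The authors deposited expected counts, made from the number of UMIs per gene and barcode with a binomial correction for repeated UMIs, not normalized and with all barcodes kept. The submitters' processing notes name BWA 0.6.2-r126 and bcl2fastq 2.17.1.14. With 4096 possible UMIs of 6 bases the correction was small for these genes, since 2098 UMIs of *selenop* in IT325 became 2136 transcripts.

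Barcodes in use with at least 1500 transcripts were kept as cells, the study's own minimum. The paper lists fewer cells of each genotype in its combined analysis, so that its cells and these are different sets. Which cells make up the difference was not traced. Spike-ins (17 entries, 0.0033% of transcripts) were left out. Of 23981 genes, 18158 (75.7%) had a symbol in the name table. No doublet caller was run, since a well received 1 sorted cell. Cells were clustered without the 10 genes, on 2000 variable genes, 30 principal components and 15 nearest neighbours at resolution 1 (leidenalg 0.10.2, igraph 0.11.9, scikit-learn 1.9.0 and scipy 1.17.1 under Python 3.11.15, with pandas 2.3.3 and numpy 2.4.6). To count, a marker had to be in at least 10% of a cluster's cells and at 2 or more times its median level among clusters. Classes were assigned with at least 3 such markers and 1.5 times as many as any other class. A cluster stayed unnamed where another class had more markers among its leading genes. So did a cluster of low depth with no marker of its class among them. The authors' assignment of cells was not used here, so the rebuilt names can differ from it. The paper used *ndrg1a* and a gene printed as seleop to tell apart clusters without a clear lineage. It proposes that some of these cells may be immature lymphoid cells and others, with *kita*, precursors of mast cells. Whether those clusters match the tubule-like clusters was not tested.

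Transcripts were summed per library, rounded to whole numbers and tested with edgeR 4.0.16 in R 4.3.3 (TMM scaling, filterByExpr, quasi-likelihood test, all 24 libraries in 1 fit). A standard error is the size of the log2 fold change over the square root of F. Members that the filter removed were given exact permutation tests on ranks, chosen after seeing the data. Code was tested on simulated data. Alternatives were DESeq2 1.42.0, no filter, another minimum of transcripts, thinning, sets P1 and P2 alone, the replicate block, clustering at resolution 2 and leaving out each library.

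All 10 genes are named. From each list of other genes, those tested were counted and up to 4 called genes with the largest change were named, and the genes most alike were the 10 with the highest Jaccard index. The members, lists and markers were chosen with earlier results of these data known. Sequences and coordinates were not used here. Some genes that these rules name are not reported here.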

Additional observations from a re-analysis of the deposited data

Results flagged for a closer look

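In 26 sets of 8 libraries, a library was looked for that lay far from the other 7, and 5 were found. Chance gives about 1 in 20 sets. *mb* reached 76.7 CPM in IT325 replicate 11. *atp1a1a.5* reached 304 CPM in fr105 replicate 5 and 11.3 CPM in wild-type replicate 4, and *slc12a10.3* reached 495 CPM in fr105 replicate 5. In fr105 replicate 5, 1 cell held 88.3% of the transcripts of *atp1a1a.5* and 76.4% of those of *slc12a10.3*, and in IT325 replicate 11, 1 cell held 76.0% of those of *mb*. The value of wild-type replicate 4 is 1 UMI. The share of cells with at least 3 of the 10 genes was 6.25% in wild-type replicate 8. Without fr105 replicates 1 and 5, *cdh17* was higher in fr105 than in IT325 by 0.97 and was not called by edgeR.

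Barcodes that the libraries did not use held transcripts above the limit that a count of 0 allows for *selenop* (21 in fr105, 27 in IT325 and 10 in wild-type) and for *atp1a1a.4* (5 in fr105).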

How the results depend on the processing

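Number of genes called by edgeR (789 for fr105 against wild-type, 719 for IT325 against wild-type, 947 for fr105 against IT325), in this order: no filter 1549, 1538 and 1580, thinned to 1500 UMIs 231, 203 and 272, P1 alone 231, 408 and 208. P2 alone gave 352 for IT325 against wild-type, and IT325 P1 libraries against wild-type gave 420. The replicate block on the 4 numbers that fr105 and IT325 share gave 215, against 285 in the same libraries without it. These libraries are of set P1 in fr105 and of set P2 in IT325, so that set and genotype cannot be told apart in either fit. The same holds for IT325 against wild-type, where the shared numbers are of P2 in IT325 and of P1 in wild-type. With the replicate block, 559 and 509 genes were called for fr105 and IT325 against wild-type. Same-numbered libraries did not vary together (correlations from -0.148 to 0.111), so that no pairing by number was seen. Low correlations cannot show that the numbers pair no samples.

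Members called (4, 3 and 2): no filter 10, 7 and 8, thinned 2, 1 and 1, without tubule-like cells 1, 1 and 1. Beside these, 1549, 1538 and 1580 of all 23644 genes were called with no filter. Thinned, 231, 203 and 272 of 836 genes were called, and without tubule-like cells 758, 711 and 973 of 3242. Standard errors shrank without the filter (*cdh17* to 0.36), and those calls are not used. For IT325 against wild-type, P1 alone and IT325 P1 libraries against wild-type gave 1, beside 408 of 3348 and 420 of 3441 genes called. For fr105 against IT325, DESeq2, P1 alone, P2 alone and leaving out fr105 replicates 1 and 5 each gave 1. Over all genes these settings called 967 of 3296, 208 of 3348, 663 of 3613 and 842 of 3585, in this order. The replicate block gave 0 members, beside 215 of 3537 genes. Leaving out 1 library gave 1 to 2 members, beside 840 of 3429 genes (without IT325 replicate 9) to 1017 of 3448 (without IT325 replicate 11). Within tubule-like cells, at least 5 cells a library gave 0.

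Shares of cells with at least 3 members moved by more than 1 SD in some settings. At least 2 members gave 48.9% in fr105, 47.4% in IT325 and 12.3% in wild-type. In IT325, at least 4 members gave 7.45%, thinning 7.14%, leaving out *selenop* 7.94%, at least 2 UMIs 8.13% and leaving out *atp1a1a.4* and *ndrg1a* 4.93%.

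Directions that turned were of genes not called, apart from *ndrg1a* in fr105 against wild-type without tubule-like cells (-0.33). *atp1a1a.4* in IT325 against wild-type was at 0.00379 when thinned and 0.10 in P2 alone. *selenop* in fr105 against IT325 was at -0.27 with at least 3000 transcripts, -0.030 thinned, -0.82 with the replicate block, -0.80 in those libraries without it, -0.049 without tubule-like cells, and from -0.10 to 0.45 with 1 library left out. *ndrg1a* in fr105 against IT325 was at -0.49 with the replicate block, -0.39 in those libraries without it, -0.79 without tubule-like cells and -0.092 without fr105 replicates 1 and 5. Within tubule-like cells, *ndrg1a* ran from -0.27 to 0.56 and *slc12a10.3* from -0.68 to 0.69 with 1 library left out, and *slc12a10.3* was at -0.080 with at least 5 cells and -0.037 at resolution 2. The cause was not tested. Over the log2 fold changes of tested members, 135 values kept direction and call, 16 lost the call, 1 gained it and 14 turned, and with 1 library left out 238 kept both, 2 lost the call and 12 turned. Leaving out fr105 replicates 1 and 5, leaving *atp1a1a.4* and *ndrg1a* out of the count, the libraries of the block without it, and left-out libraries within tubule-like cells were chosen after seeing the data.

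Low counts limit what can be said of the 6 genes that the filter removed, and wild-type held 0 to 3 UMIs of each. The part of depth in these counts was not tested. The comparison of protein sequences and promoters was not run.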

Other observations

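Of the 25 other kidney tubule genes, 13 had a higher mean CPM in fr105 than in IT325 and others a lower one, and examples of both were picked after their values were seen and with no test. *ca2*, a carbonic anhydrase, averaged 87.5 CPM in fr105, 10.6 CPM in IT325 and 11.3 CPM in wild-type. *slc9a3.2*, a sodium-proton exchanger, averaged 30.1, 0.241 and 1.32 CPM in the same order. *clcnk*, a chloride channel of distal segments in mammals, averaged 23.1 CPM in fr105 and 3.43 CPM in IT325 and had no transcript in wild-type. *slc5a12*, a carrier of lactate in the proximal tubule of mammals, averaged 55.8 CPM in fr105, 11.2 CPM in IT325 and 1.81 CPM in wild-type. *slc13a1*, a sulfate carrier of the proximal tubule in mammals, averaged 3.29 CPM in fr105, 24.2 CPM in IT325 and 0.433 CPM in wild-type. *slc5a1*, a sodium-glucose carrier, averaged 9.14, 15.4 and 0.899 CPM in the same order, and was found in 3 fr105, 8 IT325 and 2 wild-type libraries. *atp1a1a.3*, another alpha subunit of the same gene cluster, averaged 55.9 CPM in fr105 (5 libraries with a transcript), 1.32 CPM in IT325 (2 libraries) and 0.957 CPM in wild-type (2 libraries), and 84.6% of its transcripts lay in tubule-like cells.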
